A study of Mus musculus with 8 samples.

Results

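Pdcd1, Tox, Eomes and Gzmk are 4 genes of activated and effector T cells that were described across 8 libraries of sorted mouse bone marrow cells. They are 4 of the 16434 genes in the deposited table, and were chosen by their high FPKM in the library of acute undifferentiated leukaemia (AUL) together with an effector T-cell role. Levels in the AUL library are therefore a description and were not tested. The study sequenced poly(A) RNA from C57BL/6 marrow, labelled as 8 to 10 weeks of age, with 1 library per group. The 4 leukaemias arose with N-Myc overexpression and were sorted as GFP+ cells. They were AUL (B220- CD3- Mac1- Gr1-), CD3+ acute lymphoblastic leukaemia of the T lineage (T-ALL), its B220+ counterpart of the B lineage (B-ALL) and Mac1+ Gr1+ acute myeloid leukaemia (AML). The 4 normal populations came from healthy marrow by the same antigens: T cells (CD3+), B cells (B220+), myeloid cells (Mac1+ Gr1+) and, negative for all 4 antigens, cells here called lineage-negative. How N-Myc was introduced, which promoter drove it and whether a library held cells of several mice are not given in the sources used here.

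PD-1, the product of Pdcd1, is an inhibitory receptor that T cells display after antigen stimulation. Its cytoplasmic tail recruits phosphatases that dampen signals of the T-cell receptor and CD28, and its ligands PD-L1 and PD-L2 are encoded by Cd274 and Pdcd1lg2. TOX is a nuclear HMG-box protein needed for thymocyte development and for the lasting form of T-cell exhaustion, a state in which PD-1 stays high. Eomesodermin (Eomes) is a T-box transcription factor of memory and exhausted CD8 T cells and NK cells, and granzyme K is a serine protease stored in the granules of a subset of T cells.

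Values are FPKM, sequenced fragments scaled to transcript length and to the mapped reads of the library. Totals recovered from the steps of the values were 33818615 to 52280282 fragments per library, the lowest in AUL and the highest in normal myeloid cells. Intervals are 95% intervals and cover counting error only, not differences between mice, sorts or library preparations. A level in sorted cells does not tell fewer expressing cells from less RNA per cell. The AUL gate excluded CD3+ cells, yet 12 genes of the CD3 chains and proximal T-cell receptor signalling were together abundant in that library. Single genes ran from 2.06 FPKM (Themis) to 626 (Lck) in AUL. These T-cell receptor signalling genes summed to 2101 FPKM in AUL, 2530 in T-ALL, 391 in B-ALL and 98.9 in AML. The sums were 3496 in normal T cells, 311 in normal B cells, 431 in normal myeloid cells and 266 in lineage-negative cells. Fyb and Lcp2 made up most of the sum in normal myeloid cells (273 and 137) and lineage-negative cells (97.7 and 61.2). Cd2 and Fyb did so in normal B cells (142 and 106). Markers of progenitors, which an undifferentiated leukaemia could be thought to carry, were near 0, with 8 genes summing to 1.27 FPKM in AUL and 321 in lineage-negative cells. Markers of other cells were present in AUL and in the normal libraries. AUL had 1774 FPKM over 9 myeloid markers (S100a9 736, S100a8 640 and Ltf 318), against 992 in normal T cells and 23342 in lineage-negative cells, and 143 over 6 erythroid markers, the highest sum of the 8 libraries, against 43.5 and 53.4. Their part in the levels described here was not tested. Further, normal T cells had 683 FPKM over 8 B-cell markers and 568 over 6 basophil and mast cell markers, and lineage-negative cells had 697 and 2708.

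Pdcd1 (ENSMUSG00000026285, mm10 chr1:94038305-94052553, minus strand) had the most graded pattern of the 4 genes, with the 3 lymphoid-marked or undifferentiated leukaemias above every normal library. It had 289 FPKM in AUL, 72.1 in T-ALL, 18.1 in B-ALL and 4.57 in AML. Normal T cells had 5.35, normal B cells 0.494, lineage-negative cells 0.221 and normal myeloid cells 0, where 3 fragments would be 0.0297 FPKM. In AUL this was the 337th highest level of all listed genes and rested on 18854 fragments. Each step down this order was larger than counting error, the smallest being normal T cells over AML (1.17-fold, 1.01 to 1.35). The AUL level was 1305-fold that of lineage-negative cells (835 to 2168), 4.01-fold that of T-ALL (3.89 to 4.13) and 54.0-fold that of normal T cells (48.8 to 59.9). With 1 library in each group, none of these folds could be checked in a replicate or tested.

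**Figure D1:**
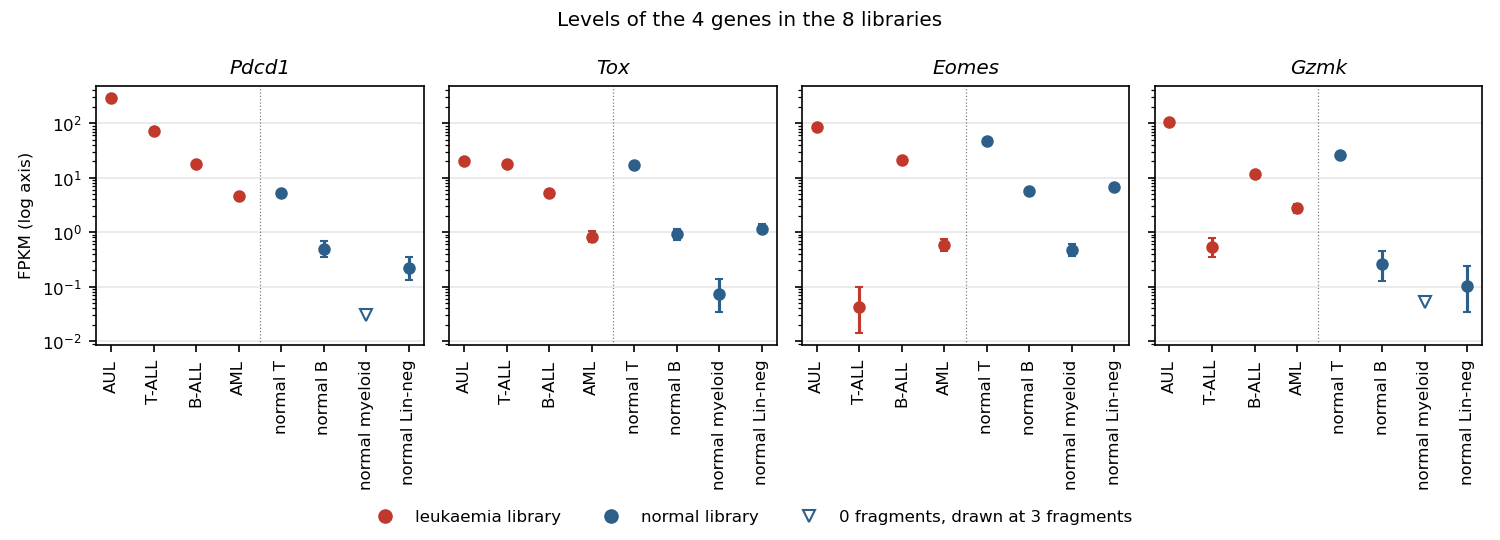
FPKM of Pdcd1, Tox, Eomes and Gzmk on a log axis in the 4 leukaemia libraries (red) and the 4 normal libraries (blue), with 95% counting intervals as bars and open triangles for 0 fragments. Each gene is highest in AUL, by 4.01-fold over the next library for Pdcd1 and by 1.12-fold for Tox, and T-ALL is low for Eomes and Gzmk only.

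Tox (ENSMUSG00000041272, chr4:6686353-6991557, minus strand) was at nearly one level in the 3 libraries richest in T-cell receptor signalling genes. It had 20.1 FPKM in AUL, 17.9 in T-ALL and 5.32 in B-ALL, and 0.833 in AML. The normal libraries had 17.2 in T cells, 0.916 in B cells, 0.0740 in myeloid cells and 1.17 in lineage-negative cells. The AUL level was 17.2-fold that of lineage-negative cells (14.3 to 20.8) but 1.12-fold that of T-ALL (1.05 to 1.20) and 1.17-fold that of normal T cells (1.09 to 1.25). T-ALL and normal T cells did not differ beyond counting error (1.04-fold, 0.972 to 1.12). Nor did lineage-negative cells and normal B cells (1.28-fold, 0.959 to 1.71), or normal B cells and AML (1.10-fold, 0.802 to 1.51). The lead of AUL over T-ALL was a log2 difference of 0.16, and it moved to 0.32 with median-ratio scaling and to 0.04 with a common FPKM sum. The lead of AUL was thus no larger than its shift between scalings. A non-coding antisense gene, Gm11802, lies inside the span of Tox and was not analysed here.

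Eomes (ENSMUSG00000032446, chr9:118478212-118486132, plus strand) separated AUL from T-ALL, which were alike for Tox. It had 86.7 FPKM in AUL and 0.0430 in T-ALL, where it rested on 5 fragments (0.0140 to 0.1003). B-ALL had 20.9 and AML 0.579. Among normal libraries it had 46.6 in T cells, 5.68 in B cells, 0.469 in myeloid cells and 6.70 in lineage-negative cells. AUL was 1.86-fold above normal T cells (1.79 to 1.93), 12.9-fold above lineage-negative cells (12.03 to 13.9) and 2016-fold above T-ALL (864 to 6211). AML and normal myeloid cells did not differ beyond counting error (1.24-fold, 0.865 to 1.77). Eomes is also expressed by NK cells. The 12 markers of NK and innate-like T cells summed to 53.5 FPKM in AUL, 147 in T-ALL, 164 in B-ALL, 90.5 in AML, 880 in normal T cells, 608 in normal B cells, 2891 in normal myeloid cells and 1265 in lineage-negative cells. Outside T-ALL and normal T cells, most of each sum came from Fcer1g and Tyrobp. These had 997 and 1881 FPKM in normal myeloid cells and 418 and 703 in lineage-negative cells. In T-ALL most of it was Zbtb16 (98.4). The sums are therefore not a measure of NK cells. Ncr1, which defines NK cells, was at 0 in AUL and AML, 0.095 in B-ALL and 0.016 in T-ALL. It had 16.6 in normal T cells, 9.32 in normal B cells, 0.918 in normal myeloid cells and 18.2 in lineage-negative cells. The part of NK cells in the Eomes level of the normal libraries was not tested. An annotated antisense gene, Gm33460, overlaps the 3' end of Eomes and had 3.81 FPKM in AUL, 2.52 in normal T cells and 0 in T-ALL. Whether strand was used in counting is not given in the sources used here, so reads of this pair may not be fully separated.

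Gzmk (ENSMUSG00000042385, chr13:113171608-113225908, minus strand) was, like Eomes, high in AUL and normal T cells and low in T-ALL. It had 107 FPKM in AUL, 0.539 in T-ALL, 11.8 in B-ALL and 2.73 in AML. Normal T cells had 26.2, normal B cells 0.257, lineage-negative cells 0.105 and normal myeloid cells 0, where 3 fragments would be 0.0534 FPKM. AUL was 1019-fold above lineage-negative cells (436 to 3139), 4.07-fold above normal T cells (3.8003 to 4.36) and 198-fold above T-ALL (134 to 306). T-ALL and normal B cells did not differ beyond counting error (2.10-fold, 0.996 to 4.72), nor did normal B cells and lineage-negative cells (2.45-fold, 0.786 to 9.01). Esm1, a gene inside the Gzmk span on the other strand, had 0.127 FPKM in AUL. The AUL library held 71.9% of the summed Gzmk level of the 8 libraries, beside 74.1% for Pdcd1, 51.7% for Eomes and 31.6% for Tox. Of 9328 genes with an FPKM of at least 5 in some library, 11.4% were highest in AUL, and Pdcd1 and Gzmk stood 39th and 40th by the log2 gap to the next library. Eomes stood 151st and Tox 716th.

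The bases before the start of 3 of the 4 genes were at hand from RefSeq (GRCm38.p6), and are shown because Eomes and Gzmk were both high in AUL and normal T cells and both low in T-ALL. Each line gives the 250 bases before the annotated start, 5′ to 3′ on the gene's strand. Capitals mark matches to 7 short motifs searched on both strands: the T-box core GGTGTGA, the NFAT core TGGAAA, the TCF core CTTTGA, the MYC E-box CACGTG, the AP-1 site TGANTCA, the RUNX core TGTGGT and the TATA box TATAAA. The Gzmk window lies inside the GENCODE span of the gene, which starts farther upstream. The windows are chr13:113180966-113181215 (minus strand), chr9:118477939-118478188 (plus strand) and chr1:94052554-94052803 (minus strand).
Gzmk: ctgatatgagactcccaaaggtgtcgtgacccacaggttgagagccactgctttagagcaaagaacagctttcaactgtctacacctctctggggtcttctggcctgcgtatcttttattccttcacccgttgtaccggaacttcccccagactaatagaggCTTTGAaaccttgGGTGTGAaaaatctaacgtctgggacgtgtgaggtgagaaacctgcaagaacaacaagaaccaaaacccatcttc
Eomes: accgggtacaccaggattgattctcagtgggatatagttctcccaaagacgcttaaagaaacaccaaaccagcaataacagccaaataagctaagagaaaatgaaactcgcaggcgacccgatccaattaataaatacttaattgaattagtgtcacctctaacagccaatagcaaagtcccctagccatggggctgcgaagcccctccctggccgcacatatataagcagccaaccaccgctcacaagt
Pdcd1: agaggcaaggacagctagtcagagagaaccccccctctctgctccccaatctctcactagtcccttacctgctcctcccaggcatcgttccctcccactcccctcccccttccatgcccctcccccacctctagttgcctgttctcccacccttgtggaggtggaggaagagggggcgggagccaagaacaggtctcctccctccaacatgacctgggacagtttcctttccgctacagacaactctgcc

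Gzmk held the T-box core 75 to 69 bases before its start and the TCF core 88 to 83 bases before it, and the matches did not overlap. None of the 7 motifs was found in the Eomes and Pdcd1 windows. The T-box core was in 3.33% of 32851 windows of the same length and the TCF core in 13.8%. The shares were 18.6% for NFAT, 6.02% for the E-box, 6.75% for AP-1, 14.0% for RUNX and 12.4% for the TATA box. A match is a description of these letters only. The windows had 48.0% G and C in Gzmk, 46.4% in Eomes and 60.4% in Pdcd1.

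Set against the normal cells of the same gate, Pdcd1 was higher in all 4 leukaemias, whereas Eomes and Gzmk went in opposite directions in T-ALL and B-ALL. A gene was counted as different at an absolute difference of at least 1 in log2(FPKM + 1) where the higher library reached 1 FPKM. In AUL against lineage-negative cells all 4 genes were counted as higher, as were 13.6% of all genes tested, and nothing is read from this since the AUL level chose them. The differences there were 7.89 for Pdcd1, 3.28 for Tox, 3.51 for Eomes and 6.61 for Gzmk. In AUL against T-ALL the differences were 1.99 for Pdcd1, 0.16 for Tox, 6.39 for Eomes and 6.13 for Gzmk, so that 3 of 4 were counted as higher, against 9.62% of all genes (11.4% were lower). In AUL against normal T cells Pdcd1 (5.51) and Gzmk (1.99) were counted as higher, against 19.7% of all genes, while Eomes (0.88) and Tox (0.21) were not. Nothing is read from the counts of AUL against T-ALL or normal T cells either, since the AUL level enters both. In T-ALL against normal T cells Pdcd1 was higher by 3.52 (13.5-fold, 12.1 to 14.98), where 22.1% of all genes were counted as higher and 24% as lower. Tox differed by 0.06 there, Eomes by -5.51 (1083-fold lower, 464 to 3338) and Gzmk by -4.14 (48.6-fold lower, 32.8 to 75.5). In B-ALL against normal B cells all 4 were higher, against 18.2% of all genes (21.9% were lower), with 3.68 for Pdcd1 (36.6-fold, 26.6 to 52.0), 1.72 for Tox, 1.71 for Eomes and 3.35 for Gzmk (45.9-fold, 25.5 to 92.5). In AML against normal myeloid cells Pdcd1 (2.48) and Gzmk (1.90) were counted as higher, against 43.3% of all genes (26.7% were lower), while Tox (0.77) and Eomes (0.10) were not. Pdcd1 and Gzmk had 0 fragments in normal myeloid cells. Set against 3 fragments there, AML was 154-fold higher for Pdcd1 and 51.1-fold higher for Gzmk. T-cell receptor signalling genes also differed in these gates. In B-ALL 8 of the 11 that could be counted were higher than in normal B cells and 2 lower (median 1.87). In AML 6 of 11 were higher than in normal myeloid cells and 2 lower (median 1.01). In T-ALL none of 12 was higher than in normal T cells and 3 were lower (median -0.63).

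**Figure D2:**
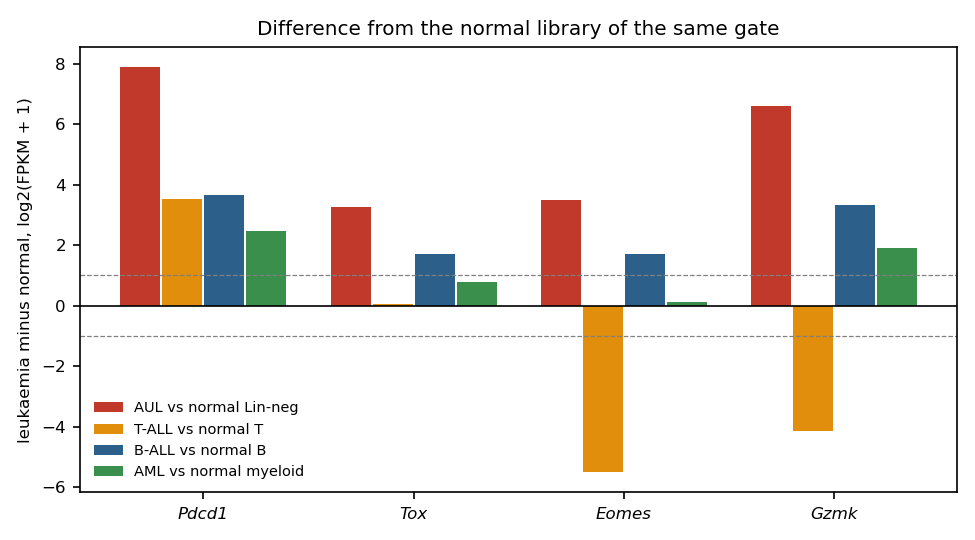
Leukaemia minus normal of the same gate on the log2(FPKM + 1) scale for each gene, 1 bar per gate in the order AUL, T-ALL, B-ALL and AML, with dashed lines at the 2-fold rule. Pdcd1 is above the upper line in all 4 gates, and Eomes (-5.51) and Gzmk (-4.14) are below the lower line in T-ALL.

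The B, T and myeloid gates did not enter the choice of the genes, so leukaemia was tested against normal over these 3 pairs with limma. Pdcd1 was higher in 3 of 3 pairs by a mean log2 of 3.23 ± 0.57 (SE) and missed the 0.05 threshold (limma, Benjamini-Hochberg adjusted p = 0.0602 over 10518 genes). Its adjusted p lay between 0.0311 and 0.172 over the alternative settings. The values under 0.05 came only from fits without the B or the T pair, where a gene's own spread did not enter. Tox had a mean of 0.85 ± 0.58 (adjusted p = 0.312), Eomes -1.23 ± 1.28 (adjusted p = 0.485) and Gzmk 0.37 ± 1.31 (adjusted p = 0.841). The test called 3 genes in all, 0.0285% of those tested, and 3310 genes had an unadjusted p under 0.05. The called genes were Mycn, the overexpressed gene itself (9.51), Rpph1, the RNA of ribonuclease P (4.43), and Ltb, the cytokine lymphotoxin beta (-4.71), named here after their values were seen. None of the listed pathway genes was called.

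In AUL, high Pdcd1 stood beside high kinases of T-cell receptor signalling, which T-ALL shared, and low PD-1 ligands. PD-L1 (Cd274) had 1.94 FPKM in AUL, 12.6 in normal T cells and 4.70 in lineage-negative cells, and PD-L2 (Pdcd1lg2) had 0.216, 1.77 and 0.574. In T-ALL, B-ALL and AML Cd274 was also low (2.69, 1.87 and 1.51), and Pdcd1lg2 had 1.80, 0.199 and 0.216. The phosphatase SHP-1 (Ptpn6) had 332 FPKM in AUL, against 321 in normal T cells and 343 in lineage-negative cells. The kinase Lck, which phosphorylates the tail of PD-1, had 626, 610 and 26.0 FPKM in these libraries, and 596 in T-ALL. Of 10 listed genes around PD-1, the phosphatase gene Ptpn11 (SHP-2) and Csk had no deposited values. The other 8 were Cd274, Pdcd1lg2, Cd80, Ptpn6, Lck, Zap70, Cd28 and Cd247. In AUL against lineage-negative cells 4 of them were counted as higher (Lck, Zap70, Cd28 and Cd247) and none as lower. There 13.6% of all genes were higher and 29.5% lower. The median difference was 3.19 over the 7 that could be counted, beside -0.18 over all genes. Against normal T cells none was higher and 2 were lower, the ligands Cd274 and Pdcd1lg2 (median -0.67, and -0.15 over all genes), where 19.7% of all genes were counted as higher and 25.8% as lower.

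Most other inhibitory receptors of T cells were lower in both AUL and T-ALL than in normal T cells. Ctla4, which competes with CD28 for its ligands, had 0.904 FPKM in AUL and 48.7 in normal T cells. Lag3, a receptor for MHC class II, had 2.87 and 15.5. Havcr2, which encodes TIM-3, was below 1 FPKM in all 8 libraries, with 0.045 in AUL and 0.895 in normal T cells. Tigit, a receptor for nectin-like proteins, had 37.2 in AUL, 1.59 in T-ALL and 20.7 in normal T cells, a difference of 0.82 from normal T cells that is under the 2-fold rule. Of 13 other inhibitory receptor genes in the table, none was counted as higher and 9 as lower in AUL against normal T cells (median -2.11 over 12), where 19.7% of all genes were higher and 25.8% lower. Against lineage-negative cells 4 were higher (Tigit, Cd160, Cd96 and Cd5) and 5 lower, where 13.6% of all genes were higher and 29.5% lower. Of 15 costimulatory and activation receptors, none was higher and 10 were lower than in normal T cells (median -2.93), against the same shares of all genes as for the inhibitory receptors. Among them were Icos (0.555 FPKM in AUL and 27.7 in normal T cells) and the IL-2 receptor chain Il2ra (0.030 and 15.3), while the chain Il2rb had 207 and 358. T-ALL went the same way against normal T cells, with 10 inhibitory (median -2.69) and 11 costimulatory receptors (median -2.68) lower and none higher. In that comparison 22.1% of all genes were higher and 24% lower. Not all of the lower receptors were highest in normal T cells. Lag3, Btla and Il2ra had 43.5, 116 and 27.7 FPKM in normal B cells. Vsir had 818 in normal myeloid cells and 195 in normal T cells, and Entpd1 and Cd200r1 were also higher in myeloid cells. Ctla4, Klrg1, Cd96, Laptm5 and Icos were highest in normal T cells. The normal T library also carried RNA of other cells, whose part in these counts was not tested.

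**Figure D3:**
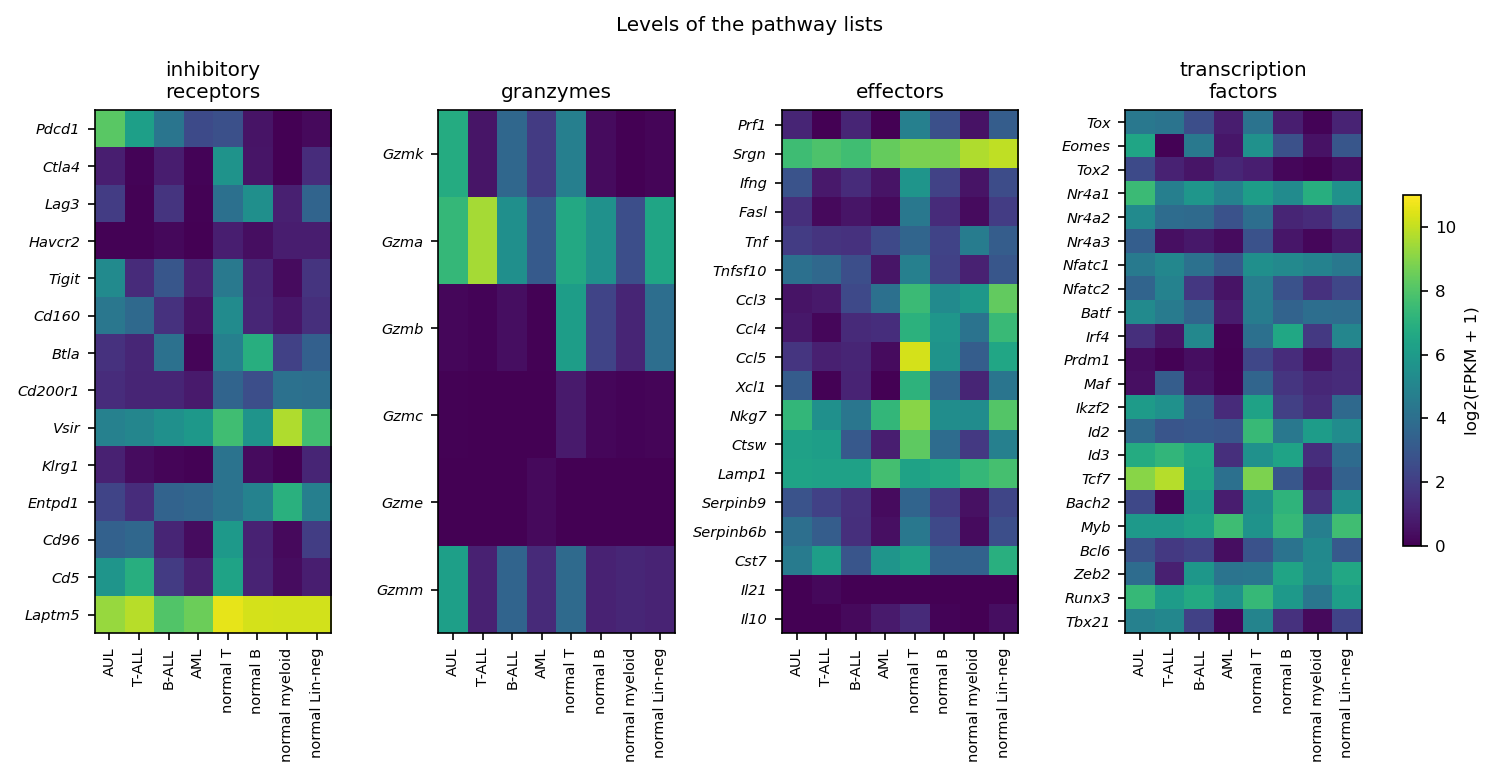
Colour gives log2(FPKM + 1), from 0 (dark) to 11 (yellow), for the inhibitory receptors, granzymes, other effector genes and transcription factors in 8 libraries, leukaemias left. In the AUL column Pdcd1, Tigit, Gzmk, Gzmm and Nr4a1 are bright, whereas Ctla4, Gzmb and Ccl5 are dark in AUL and T-ALL and bright in normal T cells.

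Among transcription factors tied to T-cell activation and exhaustion, AUL had the highest level of the 3 NR4A nuclear receptors, which are induced by T-cell receptor signals. Nr4a1 had 181 FPKM in AUL, 26.3 in T-ALL, 54.4 in B-ALL, 28.7 in AML and 68.4 in normal T cells, with 38.7, 117 and 46.9 in normal B, myeloid and lineage-negative cells. Nr4a2 had 37.1 in AUL, 13.7 in T-ALL and 14.9 in normal T cells, and Nr4a3 had 8.86, 0.385 and 5.83. Of the 20 factors, 4 were counted as higher in AUL than in normal T cells, namely Tox2 (1.55), Nr4a1 (1.39), Nr4a2 (1.26) and Id3 (1.18), and 7 as lower, with a median of -0.09, where 19.7% of all genes were higher and 25.8% lower, so the share that was higher lay near that of all genes. Prdm1, which encodes Blimp-1, a driver of terminal effector cells, had 0.297 FPKM in AUL and 4.01 in normal T cells. Tcf7, which encodes TCF-1 of naive and progenitor-like T cells, had 523 in AUL, 882 in T-ALL and 450 in normal T cells. Against lineage-negative cells 11 were higher and 5 lower (median 1.20), where 13.6% of all genes were higher and 29.5% lower.

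The closest relatives of Tox and Eomes did not share their patterns fully. Tox2 had 4.56 FPKM in AUL, 1.10 in T-ALL, 0.522 in B-ALL, 1.29 in AML and 0.899 in normal T cells, so that it stood out in AUL more than Tox did. Tox3 was at 0 in the 4 leukaemias. Tbx21, which encodes T-bet, the T-box factor that overlaps Eomes in effector T cells, had 27.5 in AUL, 32.9 in T-ALL and 30.5 in normal T cells. T-ALL thus had T-bet transcripts at the AUL level while Eomes rested on 5 fragments. Of 5 other T-box genes in the table, Tbx21 and Tbx19 were counted as higher and Tbx6 as lower in AUL against lineage-negative cells, where 13.6% of all genes were higher and 29.5% lower.

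The granzymes were unequal. Gzmm, the gene of granzyme M, had 73.6 FPKM in AUL, 0.989 in T-ALL, 10.8 in B-ALL, 1.47 in AML and 13.0 in normal T cells, an order close to that of Gzmk. Gzma, the gene of granzyme A, had 159 in AUL, 732 in T-ALL and 97.2 in normal T cells. Gzmb, the gene of granzyme B, had 0.146 in AUL and 0.082 in T-ALL, against 68.9 in normal T cells. Perforin (Prf1), which opens target membranes for granzymes, had 1.22 in AUL, 0.011 in T-ALL and 26.8 in normal T cells. Of 18 other effector genes, none was counted as higher and 13 as lower in AUL against normal T cells (median -1.76 over 17), where 19.7% of all genes were higher and 25.8% lower. Among the 13 were Ifng, the gene of interferon gamma (6.03 and 52.6 FPKM), and the chemokine gene Ccl5 (2.22 and 1236). Against lineage-negative cells 3 were higher and 9 lower (median -1.20), where the shares of all genes were 13.6% and 29.5%. In T-ALL against normal T cells none was higher and 14 were lower (median -2.11), where 22.1% of all genes were higher and 24% lower. The normal T library also carried RNA of other cells, as its B-cell and basophil markers show. Ncr1, which defines NK cells, had 16.6 FPKM there, against 0 in AUL and 0.016 in T-ALL. The part of NK cells and of the other cells in these lower counts was not tested.

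Over the 8 libraries the order of likeness among the 4 genes differed between Pearson's r and ranks. Pearson r of log2(FPKM + 1) was 0.84 between Pdcd1 and Tox, 0.84 between Eomes and Gzmk, 0.71 between Tox and Gzmk, 0.70 between Pdcd1 and Gzmk, 0.54 between Tox and Eomes and 0.38 between Pdcd1 and Eomes. Spearman's rho was 0.88 between Pdcd1 and Tox, 0.83 between Pdcd1 and Gzmk, 0.71 between Eomes and Gzmk, 0.71 between Tox and Gzmk, 0.50 between Tox and Eomes and 0.38 between Pdcd1 and Eomes. All 4 were picked for the AUL library, which is 1 of the 8 points. Among 7969 genes, those most like Pdcd1 were the neurofilament gene Nefh (0.97), the pseudogene Eif3s6-ps2 (0.97), Prickle1 (0.97), Ccdc30 (0.96) and Rasgef1a (0.96). Nefh had 56.8 FPKM in AUL, 53.2 in T-ALL and 3.28 in normal T cells. Those most like Tox were Sh2d1a, which encodes the adaptor SAP (0.99), Zap70, the kinase of the T-cell receptor (0.99), Cbarp (0.99), Crtam (0.99) and Cd3g (0.99). Those most like Eomes were the NK receptor gene Klri1 (0.96), Serp2 (0.96), Ttc28 (0.95), the Tec-family kinase gene Txk (0.95) and Kif5c (0.94). Those most like Gzmk were Gzmm (0.97), Itm2a (0.97), Trpm1 (0.96), Tigit (0.95) and Fam78b (0.95). Trpm1, a cation channel gene, had 50.9 FPKM in AUL, 0.214 in T-ALL and 3.996 in normal T cells.

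B-ALL and AML also held transcripts of the 4 genes, beside transcripts of T-cell receptor signalling genes. In B-ALL the levels were 6.26% of the AUL level for Pdcd1, 26.5% for Tox, 24.1% for Eomes and 11.1% for Gzmk. The 12 T-cell receptor signalling genes ran from 2.40% to 52.3% there, with a median of 16.6%. In AML they were 1.58% for Pdcd1, 4.15% for Tox, 0.669% for Eomes and 2.56% for Gzmk, and the 12 genes ran from 1.58% to 30.4% with a median of 4.04%. The highest of the 12 were Cd2 in B-ALL (52.3%) and Themis (30.4%), Lcp2 (29.3%) and Fyb (19.2%) in AML. Cd2 was also at 117% of AUL in normal B cells, and Lcp2 and Fyb at 220% and 307% in normal myeloid cells. The AML levels of Pdcd1 (4.57 FPKM) and Gzmk (2.73) stood beside those of Cd3g (2.89) and Lck (14.4). The part of T cells in the B-ALL and AML libraries was not tested. In T-ALL the levels were 24.95% of AUL for Pdcd1, 89.3% for Tox, 0.0496% for Eomes and 0.505% for Gzmk, where the 12 genes had a median of 124%.

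**Figure D4:**
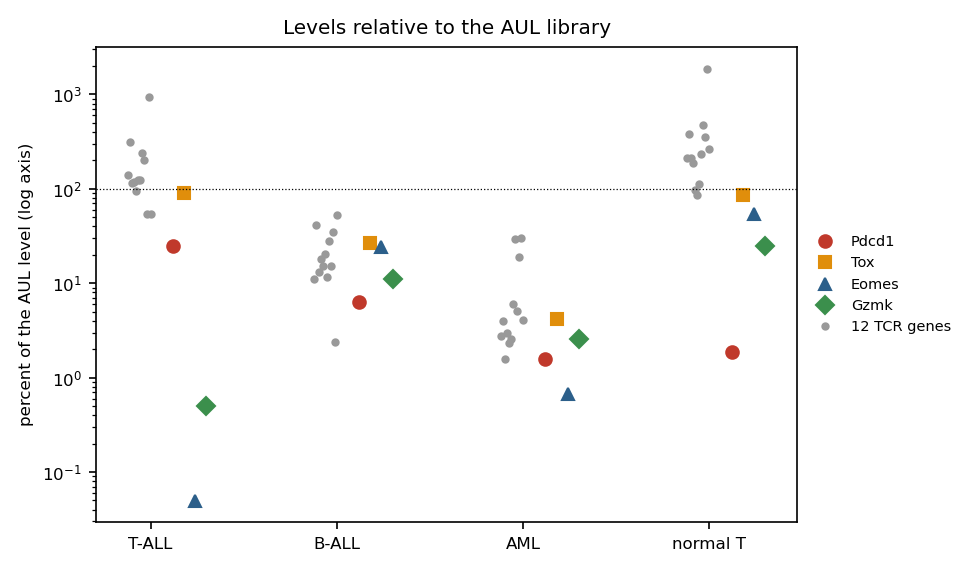
Level in T-ALL, B-ALL, AML and normal T cells as a percent of the AUL level on a log axis, with coloured symbols for the 4 genes and grey points for 12 T-cell receptor signalling genes. In T-ALL, Eomes (0.0496%) and Gzmk (0.505%) lie far below the grey points, and in normal T cells Pdcd1 (1.85%) does.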

How the data were processed

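Per the labels' protocols, equal numbers of sorted cells were lysed, poly(A) RNA was captured, cDNA was random-primed and 150-base paired-end reads were sequenced. The deposited values are FPKM made by the authors, per the labels. The submitters' processing notes name STAR, HTSeq, edgeR and the build mm10, without versions. The rule by which genes entered the table is not given in the sources used here.

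Fragments were recovered from FPKM, the mean transcript length of GENCODE vM21 and the step of low values (within 0.02 of a whole fragment for 95.9% to 96.7% of single-transcript values under 50 fragments). Levels were compared as log2(FPKM + 1) with Python 3.11.15 and SciPy 1.17.1. Level intervals are Poisson, fold intervals exact binomial. PCR duplicates make both too narrow. limma 3.58.1 was fitted with the gate as a block and an eBayes trend to genes that reached 1 FPKM in 2 or more of 6 libraries, and was tested on simulated data. The genes, lists and tests were chosen with earlier results of these data known. The genes named were the 4, any listed gene, and the 5 most like each of the 4, among genes of at least 5 FPKM without receptor segments and predicted genes. Lists were counted without the 4 genes. Alternatives were pseudocount 0.1, other scalings, no low-value filter, a 4-fold threshold, no block, each pair left out and Spearman's rho.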

Additional observations from a re-analysis of the deposited data

Results flagged for a closer look

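Eomes and Gzmk differed between gates in the direction of leukaemia against normal, on the log2(FPKM + 1) scale. Eomes was higher in AUL against lineage-negative cells (3.51) and in B-ALL against normal B cells (1.71), but lower in T-ALL against normal T cells (-5.51). Gzmk was higher in AUL (6.61), in B-ALL (3.35) and in AML against normal myeloid cells (1.90), and lower in T-ALL (-4.14). The differences between gates were not tested, since each group had 1 library.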

How the results depend on the processing

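No paired analysis by replicate number was possible because the labels number no replicates; the 3 pairs of the limma fit are gates. With pseudocount 0.1 the AUL minus lineage-negative differences were 9.81 for Pdcd1, 3.99 for Tox, 3.67 for Eomes and 9.03 for Gzmk, those from T-ALL 9.25 for Eomes and 7.38 for Gzmk, and that from normal T cells 5.73 for Pdcd1. With median-ratio scaling Eomes differed by 3.67 from lineage-negative cells, and Pdcd1 by 2.16 and Tox by 0.32 from T-ALL. With a common FPKM sum Pdcd1 differed by 1.87 and Tox by 0.039 from T-ALL, and Eomes by 0.79 from normal T cells. Median-ratio scaling moved the median over all genes to -0.14 in AML against myeloid cells, from 0.56 as deposited, to -0.01 in AUL against lineage-negative cells (from -0.18), to 0.05 in AUL against T-ALL (from -0.11), to -0.12 in T-ALL against T cells (from 0.03) and to -0.13 in B-ALL against B cells (from -0.02). The other differences of the 4 genes from AUL moved by less than their counting interval. The same 3 alternatives were added for the other gates after seeing the data. With pseudocount 0.1 T-ALL differed from T cells by 3.73 for Pdcd1, -8.35 for Eomes and -5.36 for Gzmk, B-ALL from B cells by 4.94 for Pdcd1, 2.42 for Tox, 1.86 for Eomes and 5.06 for Gzmk, and AML from myeloid cells by 5.54 for Pdcd1, 2.42 for Tox and 4.82 for Gzmk. With median-ratio scaling the values were 3.35 for Pdcd1 and -0.11 for Tox in T-ALL, 1.58 for Eomes in B-ALL, and 2.39 for Pdcd1, 1.82 for Gzmk and -0.22 for Eomes in AML, so that Tox in T-ALL and Eomes in AML, both under the 2-fold rule, changed sign. With a common FPKM sum AML differed by 2.49 for Pdcd1 and 1.91 for Gzmk, and neither fold has an interval since normal myeloid cells had 0 fragments. Over all lists, 13 genes were higher and 92 lower in AUL than in normal T cells, where 19.7% of all genes were higher and 25.8% lower. At the 4-fold threshold 3 were higher and 64 lower. The 92 include 7 B-cell, 6 basophil and mast cell and 4 stem and progenitor markers, and the 13 include 3 myeloid and 3 erythroid markers. No share was computed over all listed genes, so nothing is read from these totals. Of 68 counts of single lists, 19 moved by over 1.5 times at that threshold, 2 with pseudocount 0.1, 1 with median-ratio scaling (granzymes higher in AUL than in lineage-negative cells, 2 against 1) and none without the low-value filter.

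limma called 5 genes with pseudocount 0.1, 1 with median-ratio scaling, 1 without the filter, 2 without the gate block and 1 to 774 with a pair left out, which leaves 1 residual degree of freedom. Without the T pair the mean difference was 0.91 for Eomes, and for Gzmk it was -1.12 without the B pair and -0.40 without the myeloid pair, the reverse of their values over 3 pairs. Left-out pairs gave -2.70 to 0.91 for Eomes, -1.12 to 2.62 for Gzmk and 3.001 to 3.6003 for Pdcd1, whose adjusted p was 0.0466 without the B pair and 0.0311 without the T pair. Eomes without the B pair (0.0473) and Gzmk without the T pair (0.0384) also passed 0.05. In the fits without the B or the T pair the prior degrees of freedom were infinite. Each gene's variance then came from the trend over all genes and not from its own spread. Without the B pair, Eomes pools -5.51 in T-ALL with 0.10 in AML. Nothing is read from these passes or from the numbers of genes called in these fits. Of the 20 genes named as most alike, 10 were among the 5 nearest by Spearman's rho and 13 with pseudocount 0.1. The depth limits Eomes in T-ALL (5 fragments) and Gzmk in lineage-negative cells (5 fragments).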

Other observations

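Of 12 markers of NK and innate-like T cells, 12 were lower in AUL than in normal T cells, as were 5 of 6 markers of regulatory T cells and 9 of 11 thymocyte markers that could be counted, where 25.8% of all genes were lower and 19.7% higher. The exceptions were Ikzf2, which encodes Helios, with 64.0 FPKM in AUL and 80.5 in normal T cells, Hes1 with 8.56 and 6.01, and Notch3, which was higher in AUL (3.40 and 0.178). In T-ALL against normal T cells 10 of the 12 NK and innate-like, 5 of 6 regulatory and 10 of 10 thymocyte markers were lower. Only 1 was higher, where 22.1% of all genes were higher and 24% lower. This was Zbtb16, which encodes PLZF of innate-like T cells and had 0.310 FPKM in AUL, 98.4 in T-ALL and 3.98 in normal T cells. Foxp3 of regulatory T cells had 0.040 in AUL and 0.081 in T-ALL, against 12.8 in normal T cells. The coreceptor genes Cd4 and Cd8a had 0.495 and 5.55 in AUL, 26.8 and 0 in T-ALL, and 75.3 and 238 in normal T cells. Rag1, of the recombinase of developing lymphocytes, had 0.013 in AUL and 0.0070 in T-ALL, against 12.9 in normal T cells. It had 84.1 in normal B cells and 45.5 in lineage-negative cells. Cd4 had 85.5 in normal B cells, whereas Cd8a was highest in normal T cells. The normal T library also carried RNA of other cells, and their part in these lower marker counts was not tested. The NK receptor gene Klrc1 had 13.3 in AUL, 11.9 in B-ALL and 0 in T-ALL, against 87.2 in normal T cells.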
